A study of Mus musculus with 72 samples.

Results

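RAW264.7 cells carrying 1 deleted Setd1a allele (Setd1aDel/+) were treated for 6 h with the synthetic glucocorticoid dexamethasone (Dex) together with the bacterial product lipopolysaccharide (LPS), and their messenger RNA was compared with that of Setd1aDel/+ cells given LPS without Dex. The comparison rests on 6 of the 72 libraries of the series, 3 per group, chosen by the group names in the labels. RAW264.7 is a macrophage line from male BALB/c mice. Setd1a encodes a histone H3 lysine 4 methyltransferase of the COMPASS family, and the line was profiled to study expression that depends on it.

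The Dex with LPS group received 1 uM Dex and 100 ng/ml LPS for 6 h, added for the same time. The LPS group received 100 ng/ml LPS for 6 h with 0.1% ethanol, the solvent of Dex. 2 further Setd1aDel/+ groups, Dex alone (1 uM, 6 h) and vehicle, and the same 4 treatments of wild-type cells complete the 24 libraries of the 6 h experiment. A separate experiment gave Setd1aDel/+ cells 1 uM Dex for 16 h with 100 ng/ml LPS for 6 h, against LPS for 6 h. Every group had 3 libraries, described as biological replicates. Setd1aDel/+ cells keep 1 intact allele, and the labels used here name neither the deleted part nor how many clones were used.

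LPS is sensed by Toll-like receptor 4, which drives NF-kB and MAP kinase signalling through MyD88 and an interferon response through TRIF, with IRF factors acting first and secreted type I interferon acting afterwards. Glucocorticoids enter the cell and activate the glucocorticoid receptor, Nr3c1, which moves to the nucleus, raises genes such as Tsc22d3, Fkbp5 and Dusp1 and lowers many inflammatory genes. In macrophages this combination is the textbook example of a hormone that both activates and represses transcription.

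Promoter windows of some genes described further on are shown first, and only windows that hold the match named for their gene are shown. They are examples, and the leading hormone-responsive genes Fabp4, Klhl6, Lcn2, Tsc22d3 and Hp have no window here. A promoter was the 250 bases before and 50 bases after a RefSeq start (GRCm38.p6), and 7199 of the 8981 genes tested had one or more, 9166 promoters in all. Capitals mark an interferon-response type match, GAAA and GAAA separated by 2 bases on either strand, in the first 5 windows. In Mt1 and Sgk1 they mark a glucocorticoid receptor type match, GNACA and TGTNC separated by 3 bases, and in Il6 a kB type match, GGG and TTCC separated by 3 bases. Each window is written 5′ to 3′ along the strand of its gene.
Ifit1, chr19:34640745-34640853, plus strand: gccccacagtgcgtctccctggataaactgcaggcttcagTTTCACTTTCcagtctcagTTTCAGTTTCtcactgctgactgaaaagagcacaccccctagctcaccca
Ifit3, chr19:34583333-34583456, plus strand: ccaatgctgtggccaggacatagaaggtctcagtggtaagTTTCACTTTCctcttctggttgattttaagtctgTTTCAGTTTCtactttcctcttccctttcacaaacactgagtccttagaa
Ifit3b, chr19:34607729-34607852, plus strand: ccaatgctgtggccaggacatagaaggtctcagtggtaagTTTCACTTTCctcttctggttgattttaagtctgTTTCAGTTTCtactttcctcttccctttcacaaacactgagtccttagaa
Rsad2, chr12:26456523-26456612, minus strand: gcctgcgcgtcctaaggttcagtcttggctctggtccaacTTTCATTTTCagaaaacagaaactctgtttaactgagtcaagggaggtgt
Cxcl10, chr5:92349053-92349139, minus strand: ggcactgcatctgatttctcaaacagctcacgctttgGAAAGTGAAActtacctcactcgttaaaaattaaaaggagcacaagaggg
Mt1, chr8:94178955-94179047, plus strand: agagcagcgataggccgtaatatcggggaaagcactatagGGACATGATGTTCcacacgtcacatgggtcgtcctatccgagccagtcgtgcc
Sgk1, chr10:21993662-21993754, plus strand: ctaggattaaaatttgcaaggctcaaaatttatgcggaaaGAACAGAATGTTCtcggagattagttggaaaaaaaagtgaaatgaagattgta
Il6, chr5:30013030-30013119, plus strand: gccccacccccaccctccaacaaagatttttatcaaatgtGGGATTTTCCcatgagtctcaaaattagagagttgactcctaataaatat

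The Ifit3 and Ifit3b windows were the same in all 124 bases. Reads may be shared between these neighbouring genes in the deposited values, but their transcripts were not compared. Ifit1 and both Ifit3 genes held 2 interferon-response type matches each. Of all 9166 promoters, 3.23% held that pattern. It stood in 2.26% of the promoters of genes called higher with Dex under LPS, in 9.19% of those called lower and in 25.3% of those called lower at least 2-fold. An AP-1 type pattern, TGANTCA, stood in 8.14% of promoters of genes called higher at least 2-fold and 16.4% of those called lower at least 2-fold, against 4.81% of all promoters. The kB type pattern stood in 6.25% of all promoters and in 8.99% of those called lower. The glucocorticoid receptor type pattern was in 19 promoters, 0.207% of all. Of these, 7 belonged to genes called higher, 0.344% of their 2032 promoters, and 1 to a gene called lower, 0.103% of 968. The pattern stood in only 2 of the 43 promoters of genes listed as glucocorticoid-induced (4.65%), and in 1 of the 6 promoters of Sgk1. These windows hold no distal element, and a match is a description of letters only.

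Values are TPM, the length-corrected share of a gene among the transcripts of a library, as the authors deposited them for 8983 genes. Genes outside that table, among them Il10, Ifnb1 and Il1r2, were not analysed here. The listed genes summed to between 902114 and 911851 TPM per library, and TPM keep no read depth, so the depth behind a value is unknown. The Dex with LPS replicate 3 library varied most from its group, with a standard deviation of 0.182 log2 units around the group means and a lowest correlation with a replicate of 0.9885. Setd1a had 11.8, 9.60 and 14.1 TPM with Dex and LPS and 10.5, 12.3 and 13.6 TPM with LPS in Setd1aDel cells, against 16.5, 14 and 16.2 TPM with Dex and LPS and 12.0, 25.6 and 15.8 TPM with LPS in wild-type cells. Single libraries thus overlapped between the lines. The macrophage markers Csf1r, Cd68, Itgam and Adgre1 were present in both groups. Their mean TPM were 233, 286, 201 and 18.2 in Dex with LPS cells, against 187, 259, 141 and 15.3 TPM in LPS cells. These markers are examples of presence, and their higher means with Dex do not stand for macrophage genes in general. Of 28 tested macrophage identity genes, 10 were called higher and 12 lower with Dex under LPS, with a median change of -0.01. None of 28 markers of other cell types was among the genes tested. The deposited genes are only a part of all genes, so this does not show that such cells were absent. Each library pools a culture, so fewer cells making an RNA and less RNA per cell cannot be told apart.

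Dex under LPS moved 2 programmes of LPS-stimulated cells in opposite directions. Inflammatory and interferon genes that LPS raises were lower with Dex, and DNA replication genes that LPS lowers were higher. A small set of hormone-responsive genes led by Fabp4, Klhl6, Lcn2, Tsc22d3 and Hp was among the genes that rose most. Tyrobp also ranked there, at 3.41 ± 1.23 (SE) on the log2 scale, with uneven LPS libraries. Of 8981 genes tested, 1988 were called higher, 22.1% of those tested, and 965 were called lower, 10.7%, at an adjusted p under 0.05 (limma, Benjamini-Hochberg). Changes of at least 2-fold ran the other way, with 72 genes higher (0.802%) and 155 lower (1.73%). The shares of 22.1% and 10.7% are the base for the list counts given below for Dex under LPS. The 3 Dex with LPS and 3 LPS libraries did not overlap for 3652 genes, 40.7% of those tested, so a lack of overlap is common here. The median change over all genes was 0.06 on the log2(TPM + 1) scale, and with libraries rescaled to a common median the calls were 1447 higher and 1420 lower, so 50.5% rather than 67.3% of called genes were higher. Fitted without the Dex with LPS replicate 3 library, 2003 genes were higher and 848 lower, and fitted on these 6 libraries alone 1288 were higher.

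**Figure D1:**
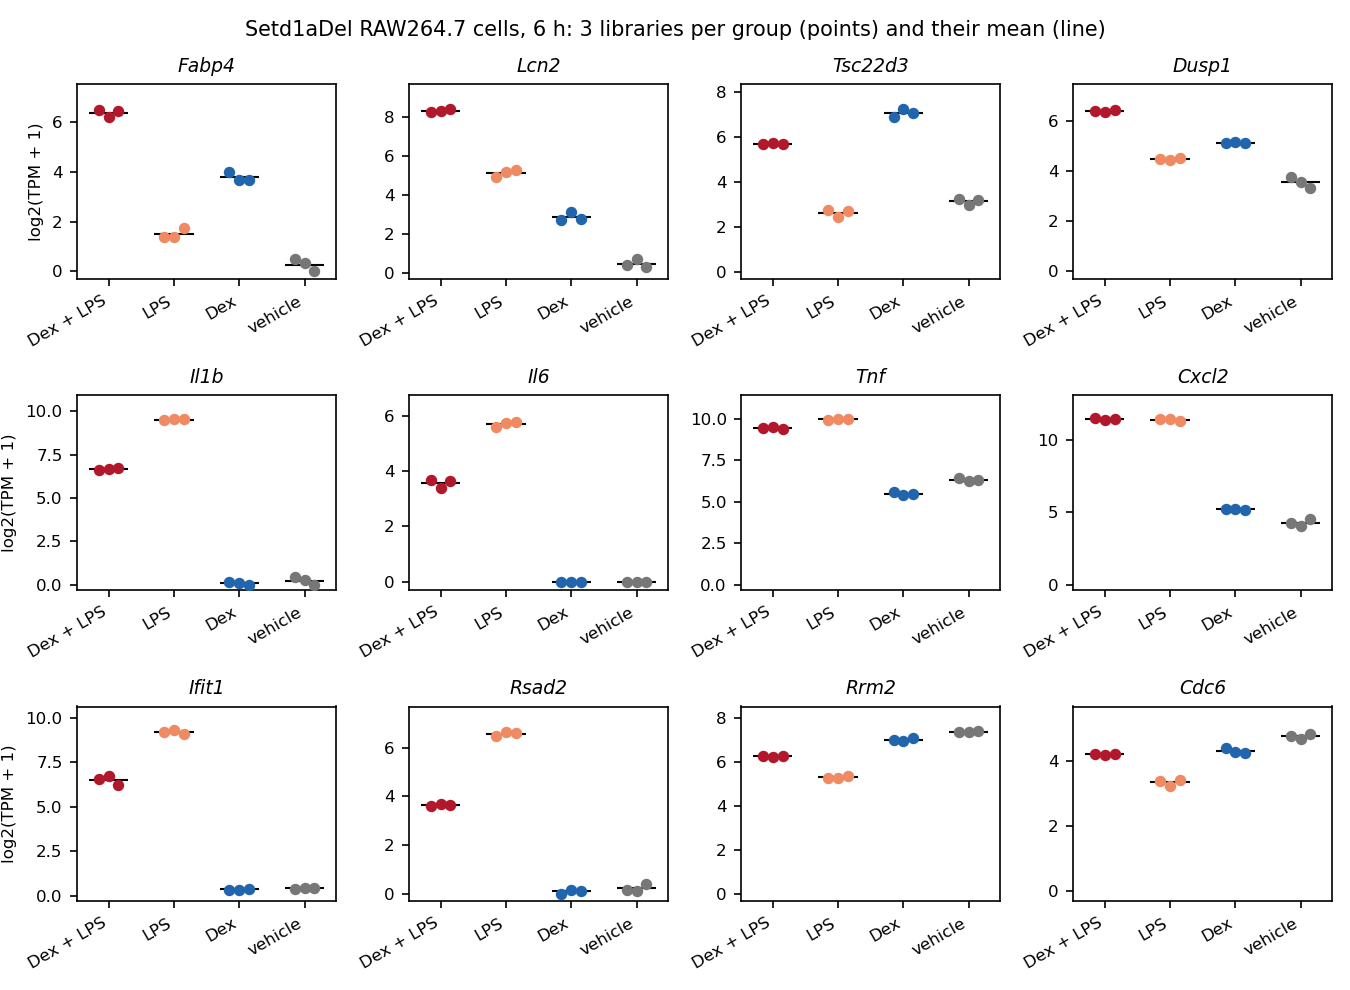
Level of 12 genes as log2(TPM + 1) (vertical axis) in the 4 Setd1aDel groups at 6 h (horizontal axis), with 1 point per library and a line at the mean of 3. Fabp4 and Lcn2 were highest with Dex and LPS together, Il1b, Il6, Ifit1 and Rsad2 were highest with LPS without Dex, and Rrm2 and Cdc6 were lowest there.

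The genes that rose most included known hormone targets and acute-phase genes. Fabp4, which encodes a fatty acid-binding protein of adipocytes and macrophages (chr3:10204088-10208576, minus strand), had 88.5, 72.7 and 84.7 TPM with Dex and LPS, against 1.57, 1.62 and 2.35 TPM with LPS. The groups were far apart, and the log2 change was 4.87 ± 0.16 (SE, adjusted p = 1.9e-14). Tsc22d3, or Gilz, a leucine zipper protein that restrains NF-kB and AP-1 (chrX:140539528-140600659, minus strand), had 50.5, 51.8 and 50.3 TPM with Dex and LPS, against 5.78, 4.40 and 5.55 TPM with LPS. Its 3 Dex libraries were nearly equal, and it rose by 3.06 ± 0.10 log2 units (adjusted p = 8.8e-15). Klhl6, a BTB and Kelch domain protein known from B cells, had 61.4, 58.8 and 46.6 TPM, against 4.28, 2.68 and 4.66 TPM in LPS libraries, a rise of 3.55 ± 0.16.

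The secreted proteins Lcn2 and Hp, an iron-siderophore binding lipocalin and the haemoglobin scavenger haptoglobin, also rose although LPS alone raises them. Lcn2 had 308, 312 and 344 TPM with Dex and LPS, against 29.9, 35.5 and 37.9 TPM with LPS, a log2 change of 3.19 ± 0.15. Hp had 36.2, 41.5 and 40.5 TPM, against 4.92, 4.17 and 4.02 TPM, a log2 change of 2.91 ± 0.09. For both genes every Dex library stood above every LPS library. Jaml, a junctional adhesion molecule of leukocytes, rose by 2.06 ± 0.15, and Dmxl1, which is linked to the vacuolar proton pump, by 2.28 ± 0.07.

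Of 44 genes listed as glucocorticoid-induced, 29 were tested, and 14 rose while 10 fell, with a median change of 0.07 that ranged between 0.0024 without LPS replicate 1 and 0.204 without Dex with LPS replicate 3. The members that rose included hormone targets known from many tissues. Klf9, a Kruppel-like repressor, had 21.0, 21.6 and 20.0 TPM with Dex and LPS, against 3.15, 3.32 and 3.70 TPM with LPS (log2 change 2.32 ± 0.08). Dusp1, the phosphatase that switches off p38 and JNK, had 84.2, 81.0 and 87.0 TPM, against 21.6, 20.7 and 22.2 TPM (1.92 ± 0.08). Fkbp5, the co-chaperone that feeds back on the receptor, had 63.8, 62.2 and 65.9 TPM, against 20.0, 18.2 and 21.9 TPM (1.63 ± 0.06). All of these were raised in every Dex library.

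Mt1 and Mt2, the metal-binding metallothioneins, were among the most abundant RNAs that rose. Mt2 had 8963, 9141 and 9400 TPM with Dex and LPS, against 2866, 2758 and 2647 TPM with LPS (log2 change 1.73 ± 0.05), and Mt1 rose by 1.39 ± 0.09. Sgk1, the serum and glucocorticoid-regulated kinase, rose by 2.01 ± 0.23 and Per1, a clock repressor, by 1.33 ± 0.17. Mt1 and Sgk1 carry the glucocorticoid receptor type match printed above. The wider list of metallothioneins and zinc transporters had 3 members higher and 3 lower of 14 tested, beside 22.1% and 10.7% of all tested genes.

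Several of the 10 members that fell are also known as targets of inflammatory signalling. Il1rn, the interleukin 1 receptor antagonist, averaged 39.2 ± 3.02 TPM with Dex and LPS, against 171 ± 19.4 TPM with LPS (SD, n = 3 each), and fell by 2.10 on the log2 scale (adjusted p = 3.4e-06). Cebpd fell by 1.31 and Zfp36, the RNA-binding protein that destabilises cytokine messages, by 0.92. Nfkbia, which encodes the NF-kB inhibitor IkB-alpha, had 263, 270 and 263 TPM, against 359, 343 and 331 TPM, and fell by 0.37. Cebpb and Tnfaip3 were not called, with changes of -0.27 ± 0.29 and -0.02 ± 0.29.

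The receptor itself was not called. Nr3c1 had 24.5, 19.4 and 18.2 TPM with Dex and LPS, against 19.0, 14.8 and 36.4 TPM with LPS, and the groups overlapped (log2 change -0.08 ± 0.31). Of 24 tested receptor chaperones and coregulators, 6 rose and 5 fell, beside 22.1% higher and 10.7% lower of all tested genes. Only 3 fell when Dex with LPS replicate 1 or 3 was left out. Fkbp4, a co-chaperone of the receptor, rose by 0.25 ± 0.04. Of 19 tested COMPASS methyltransferases and subunits, 3 rose and 2 fell, or 1 fell when Dex with LPS replicate 1 or 3 or LPS replicate 2 was left out. Kmt2d, an enhancer histone methyltransferase, fell by 0.50 ± 0.13 (adjusted p = 0.0053), Setd1b had a change of -0.29 ± 0.18 and Setd1a of -0.04 ± 0.21, neither called.

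Cytokines and chemokines fell as a group, but not all of them and not equally. Of 13 tested cytokines listed as LPS-induced, 11 fell and 1 rose, with a median change of -1.73. LPS against vehicle raised 12 of these 13 and lowered 1 in this line. Il1rn is counted here and also among the genes listed as glucocorticoid-induced. Of 11 tested chemokines 9 fell and none rose, with a median of -0.71. Il1b, which encodes the secreted pro-inflammatory interleukin 1 beta (chr2:129364570-129371139, minus strand), had 97.5, 100 and 107 TPM with Dex and LPS, against 712, 749 and 750 TPM with LPS. Its log2 change was -2.85 ± 0.10 (adjusted p = 5.8e-14). The neighbouring Il1a had 24.4, 27.2 and 25.9 TPM, against 188, 204 and 177 TPM (-2.83 ± 0.07). Both interleukin 1 genes thus had no Dex library near an LPS library.

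Il6, the acute-phase cytokine whose kB type match is printed above, had 11.8, 9.54 and 11.6 TPM with Dex and LPS, against 48.1, 52.7 and 54.6 TPM with LPS (log2 change -2.15 ± 0.07). Lif, a cytokine of the same receptor family, fell by 2.75 and Csf2, the granulocyte-macrophage growth factor, by 1.84. Tnf, the main early LPS cytokine, had 687, 738 and 668 TPM, against 987, 1025 and 1022 TPM, and fell by only 0.54 ± 0.07. Csf3, the granulocyte growth factor, had 560, 615 and 678 TPM, against 464, 451 and 475 TPM. Its groups did not overlap and its log2 change was 0.41 ± 0.20, not called (adjusted p = 0.12), although it was called higher when these 6 libraries were fitted alone (adjusted p = 0.0079).

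Among chemokines, Ccl22, a ligand of CCR4, averaged 66.6 ± 3.36 TPM with Dex and LPS, against 448 ± 18.6 TPM with LPS, and fell by 2.73. Cxcl10, the interferon-induced T-cell attractant, had 69.4, 59.0 and 50.6 TPM, against 336, 370 and 310 TPM (log2 change -2.49 ± 0.32). Ccl5 had 844, 824 and 725 TPM, against 3143, 2932 and 2540 TPM (-1.84 ± 0.23). Cxcl16 fell by 1.04 and the chemokine-binding receptor Ccrl2 by 1.87. These 5 stood apart from Cxcl2, the neutrophil attractant, which had 2790, 2626 and 2774 TPM, against 2672, 2663 and 2511 TPM, with groups that overlapped and a change of 0.06 ± 0.07. Cxcl14 was not called (-0.33 ± 0.16). Ccl2, the monocyte attractant, had 103, 111 and 121 TPM, against 183, 183 and 182 TPM, and fell by 0.71 (adjusted p = 0.016); the call was lost without the Dex with LPS replicate 1 library (-0.65, adjusted p = 0.055) and with a pseudocount of 0.1 (adjusted p = 0.37).

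Effector genes of activated macrophages divided. Of 25 tested, 12 fell and 8 rose, among them Lcn2 and Hp. Nos2, the inducible nitric oxide synthase, had 11.4, 12.1 and 10.6 TPM with Dex and LPS, against 57.5, 59.8 and 52.8 TPM with LPS (log2 change -2.22 ± 0.06). Ptgs2, the inducible cyclooxygenase, had 120, 116 and 111 TPM, against 433, 461 and 449 TPM (-1.95 ± 0.07). Mmp9, a gelatinase, fell by 1.92 ± 0.33, with LPS libraries that ranged from 11.6 to 27.8 TPM. Acod1, which makes itaconate, fell by only 0.55, and Sod2, the mitochondrial superoxide dismutase, was not called, at 642 ± 33.2 TPM against 633 ± 8.34 TPM. Outside the list, Timp1, a metalloproteinase inhibitor, was among the genes that fell most (-2.78 ± 0.13).

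Interferon-stimulated genes had the highest share of members called in 1 direction among the lists. Of 65 listed, 58 were tested, 57 fell and none rose, with 37 at least 2-fold lower and a median change of -1.17. Ifit1, which binds foreign RNA ends (chr19:34640871-34650009, plus strand), had 94.4, 107 and 74.7 TPM with Dex and LPS, against 599, 637 and 559 TPM with LPS (log2 change -2.70 ± 0.10, adjusted p = 1.3e-13). Rsad2, the antiviral enzyme viperin, had 11, 11.8 and 11.4 TPM, against 89.0, 99.6 and 94.8 TPM (-2.94 ± 0.07). Both sets of libraries were well separated. Ifit3b had 8.21, 8.48 and 5.65 TPM, against 80.0, 85.6 and 82.3 TPM (-3.33 ± 0.10), and Ifit3 fell by 2.63. The pair is uncertain, as reads may be shared between them. Ifit2 fell by 2.73, Mx1, a GTPase that traps viral particles, by 2.39 and Ifit1bl1 by 2.62, and Ifit1bl2, which the list does not hold, fell by 2.44. The member not called was Ifi27l2a, at 509 ± 34.8 TPM with Dex and LPS, against 555 ± 26.4 TPM with LPS, not called. Of the 56 promoters of this list, 50% held the interferon-response type pattern.

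Genes of peptide loading and major histocompatibility class I fell with the interferon group. Of 19 tested antigen presentation genes 16 fell and none rose, with a median of -0.67. Nlrc5, the transactivator of class I genes, fell by 1.11, the peptide transporter Tap1 by 1.13, its partner Tapbp by 0.93, the immunoproteasome subunit Psmb10 by 0.83 and H2-T22 by 1.10. Cd40, the co-stimulatory receptor, had 30.4, 31.5 and 27.5 TPM with Dex and LPS, against 117, 125 and 121 TPM with LPS (log2 change -1.99 ± 0.15).

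**Figure D2:**
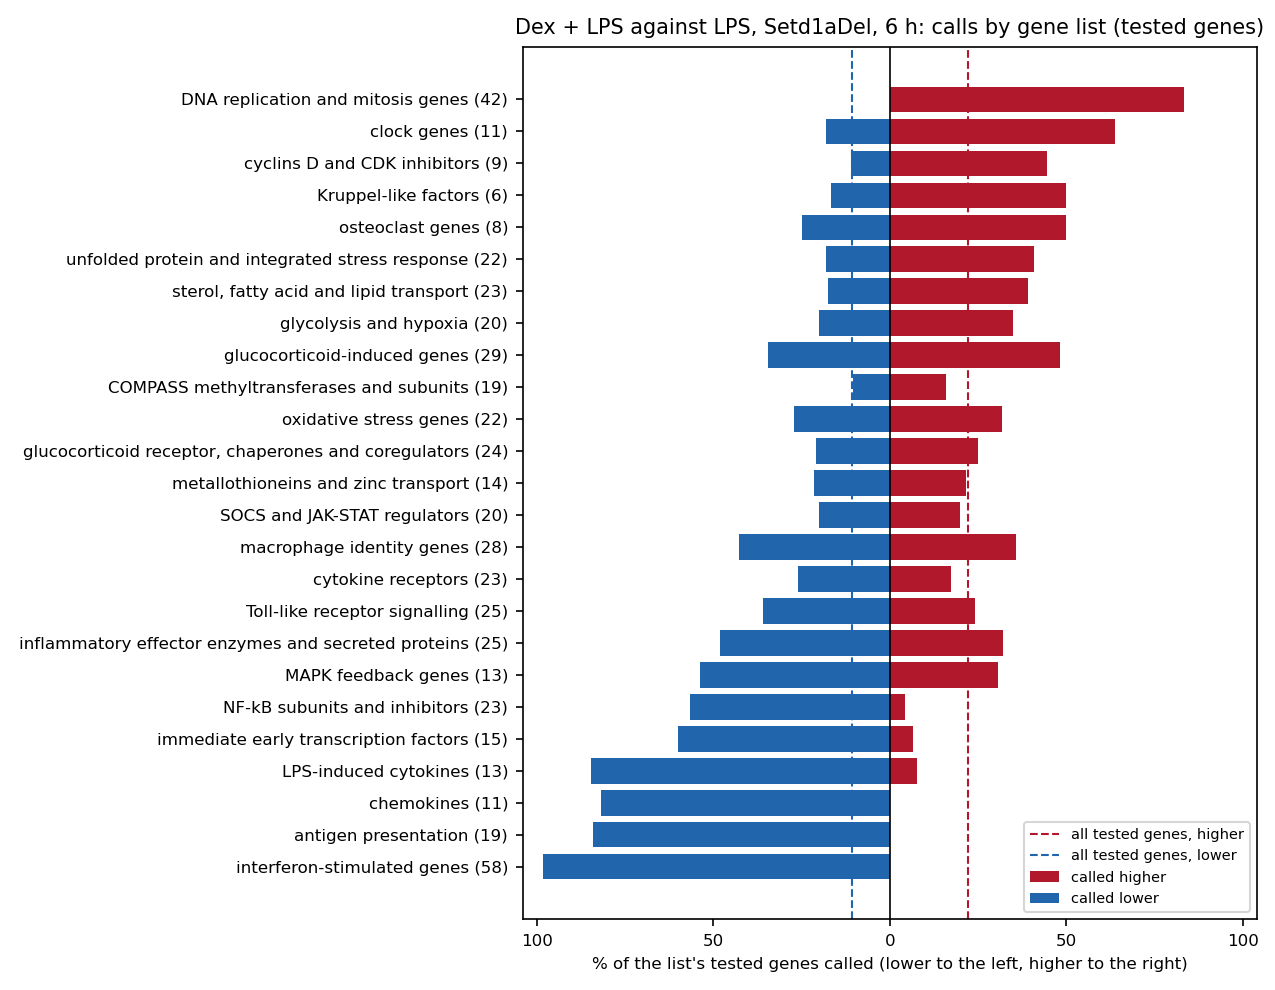
Percentage of the tested genes of each list that were called higher (right) or lower (left) with Dex and LPS against LPS, with the number tested in brackets and dashed lines at the values over all tested genes. Interferon-stimulated genes stood at the lower end with 57 of 58 called lower, and DNA replication and mitosis genes at the upper end with 35 of 42 called higher.

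Genes of NF-kB signalling mostly fell. Of 23 tested NF-kB subunits and inhibitors, 13 fell and 1 rose, with a median of -0.38. The inhibitor-like cofactor Bcl3 fell by 1.43, the adaptor Traf1 by 1.08, the inhibitor Nfkbie by 1.05 and the subunit Rel by 0.98. The member that rose was Irak3, a kinase-dead brake on Toll-like receptor signalling, which had 36.7, 40.3 and 33.3 TPM with Dex and LPS, against 19.3, 21.4 and 19.3 TPM with LPS (log2 change 0.84 ± 0.09). Of 13 tested MAPK feedback genes, 7 fell and 4 rose. Dusp1 rose while Dusp4, which acts on the same kinases, fell by 0.73 ± 0.08, and the stress gene Gadd45b fell by 1.09 ± 0.16. Of 20 tested SOCS and JAK-STAT regulators, 4 rose and 4 fell, beside 22.1% higher and 10.7% lower of all tested genes. Only 2 rose without Dex with LPS replicate 1 or LPS replicate 3. Stat3 fell by 0.62, Jak2 by 0.57 and Socs3 by 0.54, while the phosphatase Ptpn6 rose by 0.36.

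Immediate early transcription factors mostly fell, 9 of 15 tested against 1 that rose, with a median of -0.50. Nr4a2, an orphan nuclear receptor, fell by 1.31, Atf3 by 1.15, Junb by 0.84 and Myc by 0.60. Of 25 tested genes of Toll-like receptor signalling, 6 rose and 9 fell, beside 22.1% higher and 10.7% lower of all tested genes. Tlr13, the receptor for bacterial ribosomal RNA, had 30.6, 31.6 and 27.4 TPM with Dex and LPS, against 12.1, 12.1 and 11.3 TPM with LPS (log2 change 1.26 ± 0.06). Tlr3, the receptor for double-stranded RNA, moved the other way, with 4.86, 5.97 and 4.77 TPM, against 12.9, 14.6 and 13.0 TPM (-1.23 ± 0.09). Of 23 tested cytokine receptors 4 rose and 6 fell; Il6st, the shared receptor chain of the interleukin 6 family, rose by 0.97 ± 0.21 and Tnfrsf1b fell by 1.28 ± 0.12.

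DNA replication and mitosis genes rose together by small amounts. Of 42 tested 35 rose and none fell, with a median of 0.43. Rrm2, the regulated subunit of ribonucleotide reductase (chr12:24708241-24714146, plus strand), had 78.2, 75.5 and 76.9 TPM with Dex and LPS, against 38.3, 38.0 and 40.4 TPM with LPS (log2 change 0.97 ± 0.04, adjusted p = 4.4e-13). Cdc6, which loads the replicative helicase, had 17.5, 17.2 and 17.3 TPM, against 9.39, 8.45 and 9.63 TPM (0.85 ± 0.07). The libraries of each group agreed closely and did not overlap. The S-phase cyclins Ccne1 and Ccne2 rose by 1.04 and 1.06, thymidine kinase Tk1 by 0.78 and E2f1 by 0.67, while the centromere histone Cenpa was not called (0.18 ± 0.12). Of 9 tested D cyclins and CDK inhibitors 4 rose, among them Ccnd3 by 0.63, and 1 fell, a call lost without Dex with LPS replicate 1 or 2 or LPS replicate 1.

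Clock genes also rose, 7 of 11 tested against 2 that fell, with a median of 0.42. The repressor Cry1 had 12.9, 12.9 and 14.5 TPM with Dex and LPS, against 6.09, 5.36 and 6.23 TPM with LPS (log2 change 1.07 ± 0.07). Tef rose by 0.89, Nfil3 by 0.81 and Cry2 by 0.66, and Bhlhe40 fell by 0.73. Of 6 tested Kruppel-like factors, Klf9, Klf6 (0.54) and Klf10 (0.44) rose and Klf4 fell by 0.56.

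Lineage and surface genes of macrophages moved in both directions, 10 of 28 tested up and 12 down. Fcgr1, the high-affinity IgG receptor that interferon raises, had 40.9, 49.9 and 42.5 TPM with Dex and LPS, against 131, 142 and 138 TPM with LPS (log2 change -1.61 ± 0.08). Fcgr3, a low-affinity IgG receptor, had 30.9, 31.6 and 42.3 TPM, against 16.7, 19.2 and 19.8 TPM (0.86 ± 0.10). The 2 receptors therefore changed in opposite directions. Clec7a, the beta-glucan receptor Dectin-1, fell by 2.30 ± 0.19, Cebpa, a myeloid transcription factor, rose by 1.07 ± 0.17 and the scavenger receptor Msr1 was not called (0.02 ± 0.04). Of 8 tested osteoclast genes 4 rose, among them the fusion protein Dcstamp by 0.65 ± 0.13, and 2 fell, Mmp9 and Nfatc1 (-0.56 ± 0.09).

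Lipid, glucose and stress genes had mixed responses whose balance depended on the scaling. Of 23 tested sterol and lipid genes 9 rose and 4 fell, against 6 and 5 after rescaling; Scd2, a fatty acid desaturase, rose by 1.08 ± 0.10, and the cholesterol exporters Abcg1 and Abca1 fell by 0.89 and 1.29. Abca1 was at 0.22 ± 0.03 TPM with Dex and LPS, against 2.00 ± 0.23 TPM with LPS. Of 20 glycolysis and hypoxia genes 7 rose and 4 fell, against 3 and 4 after rescaling, and 2 fell without Dex with LPS replicate 1; Pfkfb3, which drives glycolytic flux, rose by 1.14 ± 0.06 and Vegfa fell by 0.72 ± 0.11. Of 22 unfolded protein and stress response genes 9 rose and 4 fell, against 6 and 5 after rescaling, and 2 fell without Dex with LPS replicate 3. The disulphide isomerase Pdia4 rose by 0.46 and Hspa5, the main chaperone of the endoplasmic reticulum, fell by 0.91 ± 0.23. Of 22 oxidative stress genes 7 rose and 6 fell, Nfe2l2 rising by 0.34 and Prdx1 falling by 0.60.

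The lowest change of all called genes was that of Pim2, a serine and threonine kinase, with 0.378, 0.535 and 0.0959 TPM with Dex and LPS, against 8.02, 14.7 and 24.5 TPM with LPS (-3.54 ± 0.78, adjusted p = 0.0015). Its groups did not overlap, but wild-type LPS libraries ranged from 0.0183 to 22.5 TPM. Tyrobp had 88.5, 140 and 137 TPM, against 0.0393, 56.2 and 23.4 TPM (log2 change 3.41 ± 1.23). Abcb1a had 6.18, 7.02 and 10.5 TPM, against 0.0756, 2.54 and 0.0158 TPM (2.47 ± 0.91). For Tyrobp and Abcb1a the LPS libraries differed among themselves by far more than the other genes named above.

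The change with Dex was also set against each gene's response to LPS, measured in wild-type libraries so that no library was shared. Of 520 genes that LPS raised at least 2-fold in wild-type cells, 376 (72.3%) were lower and 38 were higher with Dex under LPS in Setd1aDel cells, with a median change of -0.58. Of 1079 genes that LPS lowered at least 2-fold, 564 (52.3%) were higher and 17 were lower, with a median of 0.30. Among the other 7382 genes 1386 were higher and 572 lower. Genes moved by LPS in wild-type cells were therefore mostly called in the direction opposite to LPS.

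Within Setd1aDel cells LPS against vehicle gave 1834 genes called higher (20.4%) and 4417 lower (49.2%). Rescaling moved the median of all genes in this comparison by 0.205 log2 units, to 2967 higher and 2993 lower. Of the 58 interferon-stimulated genes 57 rose with LPS, and all 42 replication genes fell. Il1b rose by 9.30 ± 0.10, Ifit1 by 8.83 ± 0.10, Ifit3 by 8.22, Isg15 by 7.88, Ccl5 by 7.83, Csf3 by 8.67 and Csf2 by 7.65 on the log2(TPM + 1) scale. Rrm2 fell by 2.07 ± 0.04 and Tk1 by 3.73 ± 0.08. Hormone targets were split, Lcn2 rising by 4.67 and Hp by 2.23 with LPS alone, while Klf9 fell by 1.52, Fkbp5 by 0.57 and Tsc22d3 by 0.50. The LPS libraries are shared with the Dex comparison, so the values are set side by side and no overlap is given.

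Dex without LPS had a different profile in the same line. Against vehicle 1074 genes were higher (12%) and 1641 lower (18.3%), with 1194 and 1532 after rescaling. Of the 29 glucocorticoid-induced genes 17 rose and 5 fell, with a median of 0.82; the number that fell was 1 without vehicle replicate 1, 2 without Dex replicate 1 or 2 and 3 without Dex replicate 3 or vehicle replicate 3. Tsc22d3 had 118, 148 and 131 TPM with Dex, against 8.41, 6.93 and 8.11 TPM with vehicle (log2 change 3.91 ± 0.10), and Fkbp5 had 161, 160 and 168 TPM, against 28.9, 28.5 and 33.5 TPM (2.39 ± 0.06). Both reached higher levels with Dex alone than with Dex and LPS together. Hp rose by 4.12 ± 0.09, Fabp4 by 3.51 ± 0.16, Klhl6 by 2.84, Lcn2 by 2.41, Klf9 by 2.04, Per1 by 2.29, Sgk1 by 2.19, Dusp1 by 1.59, Mt2 by 1.41 and Mt1 by 0.82. The vesicle adaptor subunit Ap1s2 rose by 3.09 and glutaredoxin Glrx by 2.63, while Plau, the urokinase, fell by 2.41 ± 0.04 and the tumour necrosis factor family member Ltb by 1.78.

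Fabp4 and Lcn2 were highest when both agents were present. Fabp4 had 14.9, 11.8 and 11.8 TPM with Dex alone and 0.398, 0.263 and 0 TPM with vehicle. Lcn2 had 5.54, 7.86 and 5.87 TPM with Dex alone, against 0.325, 0.631 and 0.231 TPM with vehicle. The combined treatment stood above each agent alone for both genes.

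Of the 1988 genes called higher with Dex under LPS, 460 were also called higher with Dex alone, 23.1% of these 1988 and 42.8% of the 1074. A further 422 were called lower with Dex alone, 21.2% of the 1988, close to the 18.3% of all tested genes called lower there. Of the 965 called lower, 341 were called lower with Dex alone, 35.3% of these and 20.8% of the 1641. Another 88 of the 965 were called higher with Dex alone, 9.12%, against 12% of all tested genes. Across the 8981 genes the changes in the 2 settings had a Pearson correlation of 0.293, given as a description, since all libraries come from 1 experiment.

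**Figure D3:**
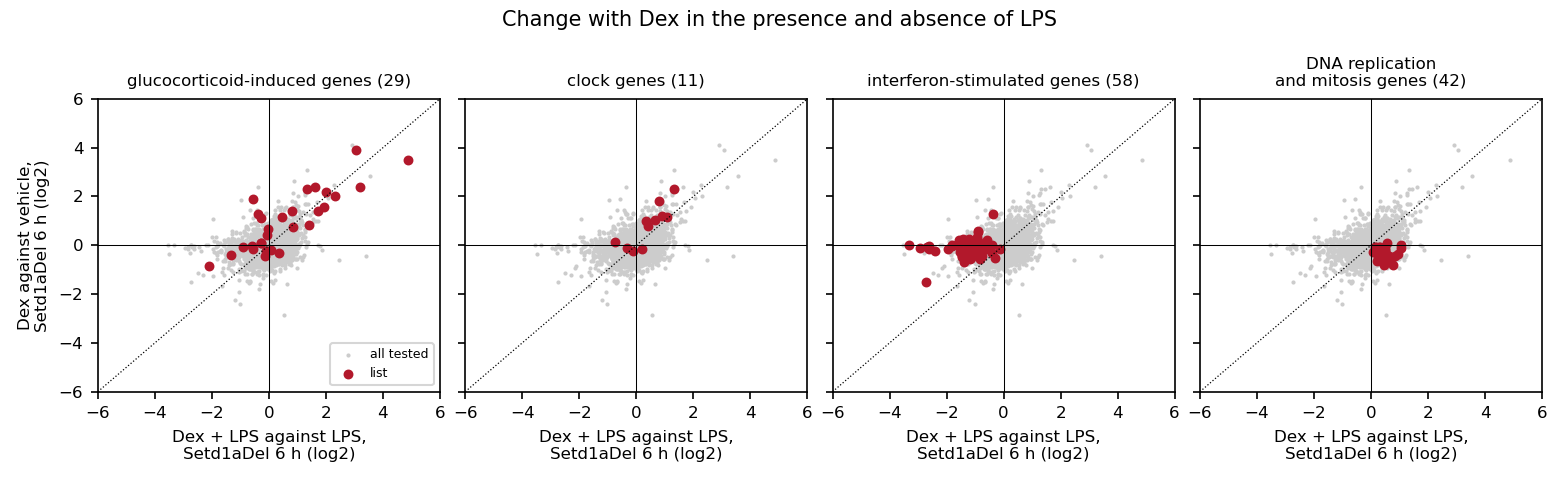
Log2 change with Dex in the presence of LPS (horizontal axis) against that without LPS (vertical axis) in Setd1aDel cells, 1 point per gene, with list members in red, all tested genes in grey and equality dotted. Clock genes lay mostly in the upper right, glucocorticoid-induced genes spread over both sides of 0 on the horizontal axis, interferon-stimulated genes lay to the left near 0 on the vertical axis, and replication genes lay right of 0 and mostly below 0 on the vertical axis.

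The difference between the Dex change with LPS and the Dex change without it was tested directly in the same fit. It was called positive for 1849 genes (20.6%) and negative for 855 (9.52%), with 1352 and 1229 after rescaling. Of the interferon-stimulated genes 50 were negative and 1 positive, with a median difference of -1.10 against 0.08 over all genes. Ifit3b had the most negative value of these, -3.33 ± 0.14, then Rsad2 with -2.81 and Ifit1 with -2.65. With Dex alone Ifit1 was near 0, at 0.255, 0.263 and 0.294 TPM, against 0.267, 0.348 and 0.340 TPM with vehicle, levels at which a fall cannot be measured on this scale. The same holds for Ifit3b, Rsad2, Il1b (-2.70), Il1a (-2.75), Lif (-2.75), Il6 (-2.15) and Nos2 (-2.22), all at or under 0.362 TPM in every Dex-alone and vehicle library.

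Replication genes were the clearest group that went opposite ways. Without LPS Dex lowered 28 of 42 and raised none, with a median of -0.30, and the difference was positive for 38 of 42 and negative for none, with a median of 0.73. Rrm2 had 127, 126 and 137 TPM with Dex, against 166, 165 and 170 TPM with vehicle (log2 change -0.36 ± 0.04), and its difference was 1.33 ± 0.06 (adjusted p = 3.3e-12). Ung, the uracil glycosylase of base excision repair, had 19.7, 17.4 and 24.1 TPM with Dex and LPS, against 8.90, 6.80 and 10.0 TPM with LPS. Without LPS it had 21.0, 22.2 and 24.9 TPM with Dex, against 34.2, 33.5 and 35.7 TPM with vehicle, the opposite direction (difference 1.75 ± 0.20). Pik3cd, the leukocyte PI3 kinase catalytic subunit, had a difference of 1.65, Inka1 of 1.69 and Zfp385a of 1.64 ± 0.38.

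The difference was more often negative than positive for hormone-responsive genes. It was negative for 15 and positive for 8 of the 29 glucocorticoid-induced genes, with a median of -0.43. Tsc22d3 (-0.85 ± 0.14), Fkbp5 (-0.77 ± 0.09) and Per1 (-0.97 ± 0.24) rose less under LPS than without it. Nfkbia (-1.64 ± 0.09) fell under LPS and rose by 1.27 ± 0.06 with Dex alone. The metallothioneins moved more under LPS, with 0.57 ± 0.13 for Mt1 and 0.33 ± 0.07 for Mt2, and Sgk1 was not called (-0.18 ± 0.32). Of 11 clock genes 4 had a negative difference and none a positive one.

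Cytip and Jarid2 rose with Dex alone and did not rise under LPS. Cytip, a cytohesin-binding protein of leukocytes (chr2:58129137-58195532, minus strand), had 1.63, 1.71 and 1.55 TPM with Dex and LPS, against 3.77, 4.38 and 4.26 TPM with LPS. Without LPS it had 21.7, 24 and 21.5 TPM with Dex, against 6.09, 5.14 and 5.08 TPM with vehicle. It fell by 0.96 ± 0.09 under LPS and rose by 1.86 ± 0.09 without, a difference of -2.83 ± 0.13. Jarid2, a Polycomb cofactor, had 67.5, 57.4 and 28.9 TPM with Dex and LPS, against 83.1, 63.3 and 46.2 TPM with LPS, groups that overlapped (log2 change -0.37 ± 0.29, not called). Without LPS it had 163, 149 and 121 TPM with Dex, against 22, 24.4 and 33.1 TPM with vehicle (2.41 ± 0.29), and the difference was -2.77 ± 0.41. Ptgs2 had a difference of -0.68 ± 0.10.

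Wild-type cells treated in parallel responded to Dex under LPS with the same leading genes. There 1320 genes were called higher (14.7%) and 953 lower (10.6%), with 999 and 1244 after rescaling. Fabp4 rose by 4.89 ± 0.16, Tsc22d3 by 3.52, Klhl6 by 3.28, Hp by 3.02, Lcn2 by 2.81, Dusp1 by 2.51, Klf9 by 2.27, Mt2 by 1.99 and Fkbp5 by 1.73. Il1b fell by 3.50 ± 0.10, Il1a by 3.04, Lif by 2.46, Timp1 by 2.40, Ccl22 by 2.29, Clec7a by 2.27 and Nos2 by 1.69. Of the genes called higher in Setd1aDel cells 876 were called higher in wild type, 44.1% of the 1988 and 66.4% of the 1320. Of those called lower 601 were shared, 62.3% of the 965 and 63.1% of the 953, and 46 genes were called in opposite directions.

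**Figure D4:**
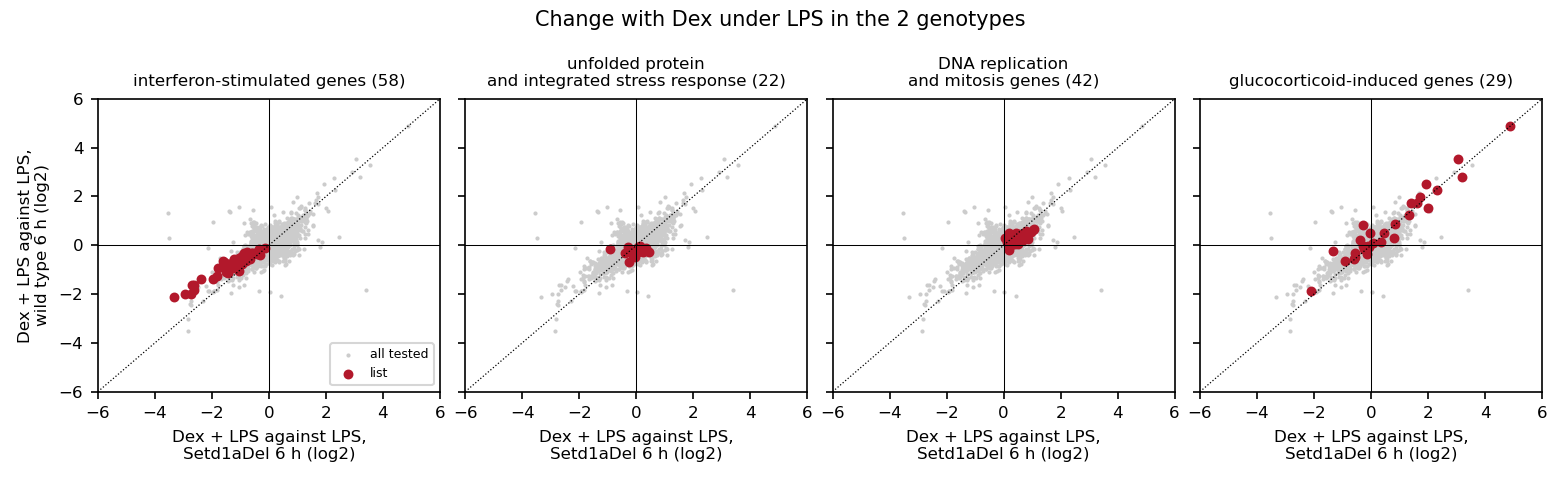
Log2 change with Dex under LPS in Setd1aDel cells (horizontal axis) against wild-type cells (vertical axis), 1 point per gene, with list members in red, all tested genes in grey and equality dotted. Interferon-stimulated genes lay mostly above the dotted line, with medians of -1.17 in Setd1aDel and -0.70 in wild-type cells, and stress response genes lay mostly below it.

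The difference of the Dex changes, Setd1aDel minus wild type, was called positive for 292 genes (3.25%) and negative for 183 (2.04%), with 233 and 237 after rescaling. These counts depended on single libraries: they were 170 and 108 without wild-type Dex with LPS replicate 2, and 177 and 110 without wild-type LPS replicate 3. Negative calls numbered 116 without Setd1aDel LPS replicate 1 and 113 without Setd1aDel LPS replicate 2. Fitted on these 4 groups alone 159 were positive. Genotype and line cannot be told apart in this comparison. Camkk2 and Mrfap1, among the most negative, had uneven libraries. In Setd1aDel cells Camkk2, a calmodulin-dependent kinase kinase, had 0.019, 0 and 1.3 TPM with Dex and LPS, against 3.90, 5.66 and 3.15 TPM with LPS. In wild-type cells it had 9.49, 4.89 and 4.87 TPM with Dex and LPS, against 4.03, 3.06 and 1.38 TPM with LPS (difference -2.92 ± 0.55). Mrfap1 had 79.5, 78.0 and 105 TPM, against 200, 121 and 109 TPM, in Setd1aDel cells, and 444, 450 and 204 TPM, against 175, 156 and 153 TPM, in wild-type cells (-1.75 ± 0.39).

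Many interferon-stimulated genes fell further in Setd1aDel than in wild-type cells. The difference was negative for 27 of 58 and positive for none, with a median of -0.47 against 0.02 over all genes. In wild-type cells Ifit1 had 131, 148 and 141 TPM with Dex and LPS, against 444, 443 and 424 TPM with LPS, a fall of 1.63, and its difference was -1.07 ± 0.14 (adjusted p = 0.00058). Rsad2 had 36.3, 41.1 and 40.9 TPM, against 166, 150 and 158 TPM, a fall of 1.98, with a difference of -0.97 ± 0.10 (adjusted p = 6.8e-05). Setd1aDel libraries with Dex were lowest for both genes. Ifit3b had a difference of -1.19, Mx1 of -1.01 and Ifit3 of -0.99, from falls of 2.13, 1.38 and 1.64 in wild type.

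The size of that group depended on the setting. With a pseudocount of 0.1 in place of 1, 10 of the 58 were called, and the 5 genes just named missed the threshold (adjusted p = 0.060 to 0.244). With the same pseudocount and these 4 groups fitted alone, 25 were called. Without Setd1aDel LPS replicate 2, or without wild-type Dex with LPS replicate 2, 17 were called. None was positive in any of these settings.

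Stress response and replication genes differed the other way. The difference was positive for 12 of 22 unfolded protein response genes and negative for none, with a median of 0.31; in wild-type cells 16 of these 22 fell with Dex under LPS and none rose. Pdia4 had 49.1, 48.1 and 51.9 TPM with Dex and LPS, against 59.8, 58.2 and 61.1 TPM with LPS, in wild-type cells, the reverse of its rise in Setd1aDel cells (difference 0.71 ± 0.08, adjusted p = 6.8e-05). Manf, a secreted stress protein, had a difference of 0.55 ± 0.08. For 12 of 42 replication genes the difference was positive and for none negative, and 7 were called when these 4 groups were fitted alone; Rrm2 had 0.40 ± 0.06.

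Single genes differed in level and direction. Lrmp, a membrane protein of lymphoid cells, had 124, 102 and 98.4 TPM with Dex and LPS, against 44.0, 54.8 and 58.8 TPM with LPS, in Setd1aDel cells. In wild-type cells it had 62.5, 85.8 and 89.9 TPM, against 96.2, 85.6 and 71.9 TPM, groups that overlapped (-0.10 ± 0.15), and the difference was 1.13 ± 0.21. Dcstamp had a difference of 1.09 ± 0.18, Bcl7a, a chromatin remodelling subunit, of 1.08 ± 0.18, Nde1, a dynein regulator, of 0.92 ± 0.14 and Scd2 of 0.80 ± 0.14. Nfkbia rose in wild-type cells, with 349, 351 and 317 TPM with Dex and LPS, against 286, 299 and 285 TPM with LPS, while it fell in Setd1aDel cells (difference -0.60 ± 0.09). Dusp1 had 75.6, 79.9 and 78.7 TPM, against 13.2, 13.3 and 12.2 TPM in wild type, so levels with Dex were close to those of Setd1aDel cells and levels with LPS were lower, and its difference was -0.59 ± 0.12. Il1b had a difference of 0.65 ± 0.15 and Nos2 of -0.54 ± 0.08, both lost with a pseudocount of 0.1 (adjusted p = 0.66 and 0.060).

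Most hormone targets were not called between the lines. Exceptions called negative included Mt2 (-0.26 ± 0.07), Cebpd (-1.10 ± 0.28), Dusp1 (-0.59 ± 0.12) and Nfkbia (-0.60 ± 0.09). The difference was -0.02 ± 0.23 for Fabp4, 0.05 ± 0.12 for Klf9 and -0.11 ± 0.09 for Fkbp5. It was also not called for 2 genes of other kinds, Il6 (-0.27 ± 0.10) and Setd1a (0.08 ± 0.30). For Tsc22d3 it was -0.46 ± 0.14 (adjusted p = 0.059), and it was called without Setd1aDel LPS replicate 2 (-0.56, adjusted p = 0.025). Of the 29 glucocorticoid-induced genes 5 had a negative and 1 a positive difference. The negative ones numbered 2 without Setd1aDel LPS replicate 1 or wild-type Dex with LPS replicate 2, and 3 without Setd1aDel Dex with LPS replicate 1, wild-type Dex with LPS replicate 1 or wild-type LPS replicate 2 or 3; the positive ones numbered 2 without Setd1aDel Dex with LPS replicate 2.

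In the second experiment, with 16 h of Dex and 6 h of LPS in Setd1aDel cells, 2231 genes were higher (24.8%) and 1164 lower (13%) than with LPS. Of the genes called higher at 6 h, 1111 were called higher there, 55.9% of the 1988 and 49.8% of the 2231. Of those called lower 561 were shared, 58.1% of the 965 and 48.2% of the 1164, and 123 genes were called in opposite directions. The 6 h minus 16 h difference of the Dex changes was positive for 990 genes (11%) and negative for 730 (8.13%), with 1002 and 834 after rescaling and 468 negative when these 4 groups were fitted alone. Duration of Dex and the experiment cannot be told apart in this comparison, and at 6 h Dex and LPS were given for the same time while at 16 h Dex was present for longer than LPS.

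Interferon-stimulated genes fell at both times and further at 16 h. At 16 h 57 of 58 were lower, with a median of -1.96, and the difference was positive for 38 and negative for 6, with a median of 0.69. Ifi44 had 241, 268 and 212 TPM with Dex and LPS, against 575, 583 and 574 TPM with LPS, at 6 h, and 9.55, 9.14 and 8.44 TPM, against 111, 106 and 111 TPM, at 16 h. Its change at 16 h was -3.46 and its difference 2.19 ± 0.18. Zbp1, a sensor of Z-form nucleic acid, had a difference of 2.28 ± 0.17, Xaf1 of 2.50 ± 0.26, the class I gene H2-T24 of 2.41 ± 0.18 and Oas3 of 2.17 ± 0.15. Ifit1bl1 went the other way (-2.36 ± 0.16), as did the interferon-induced GTPase Tgtp2 (-1.83 ± 0.12); at 16 h the LPS libraries held at most 0.323 TPM of Ifit1bl1 and 0.00658 TPM of Tgtp2.

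No clock or hormone target gene had a difference called negative. It was positive for 8 of 11 clock genes and 15 of 29 glucocorticoid-induced genes, with medians of 0.97 and 0.37. Cry1 had 3.75, 4.77 and 4.19 TPM with Dex and LPS, against 7.33, 7.18 and 7.30 TPM with LPS, at 16 h, opposite in direction to 6 h (difference 1.73 ± 0.09). Dusp1 had 21.7, 19.6 and 19.5 TPM, against 30.5, 32.7 and 30.7 TPM, at 16 h, also opposite to 6 h (2.52 ± 0.10). Tef had a difference of 2.18 ± 0.19, Per1 of 1.67 ± 0.22 and Tsc22d3 of 1.70 ± 0.17, and Tsc22d3, with 6.25, 6.70 and 5.65 TPM, against 1.81, 1.54 and 2.05 TPM, was raised at both times. Klf9 had 1.11 ± 0.11, Klhl6 1.06 ± 0.20, Mt2 0.92 ± 0.08 and Fkbp5 0.35 ± 0.08. Sterol and lipid genes had a positive difference for 15 of 23 and a negative one for none, with 3 higher and 15 lower at 16 h.

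Most cytokines were lowered more at 6 h. Il1a had 652, 649 and 608 TPM with Dex and LPS, against 1881, 1680 and 1546 TPM with LPS, at 16 h, and its difference was -1.41 ± 0.09. Nos2 had 18.4, 19.0 and 21.9 TPM, against 41.6, 35.6 and 38.8 TPM (-1.29 ± 0.08), and Ptgs2 had 1458, 1527 and 1559 TPM, against 2634, 2401 and 2396 TPM (-1.24 ± 0.09). All of these were still lower with Dex at 16 h. Lif had a difference of -1.69 ± 0.14, Mmp9 of -2.14 ± 0.38 and the phosphatase Ptpn5 of -1.37 ± 0.10. Of 13 tested cytokines the difference was negative for 8 and positive for 1, and with a pseudocount of 0.1 it was negative for 4.

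**Figure D5:**
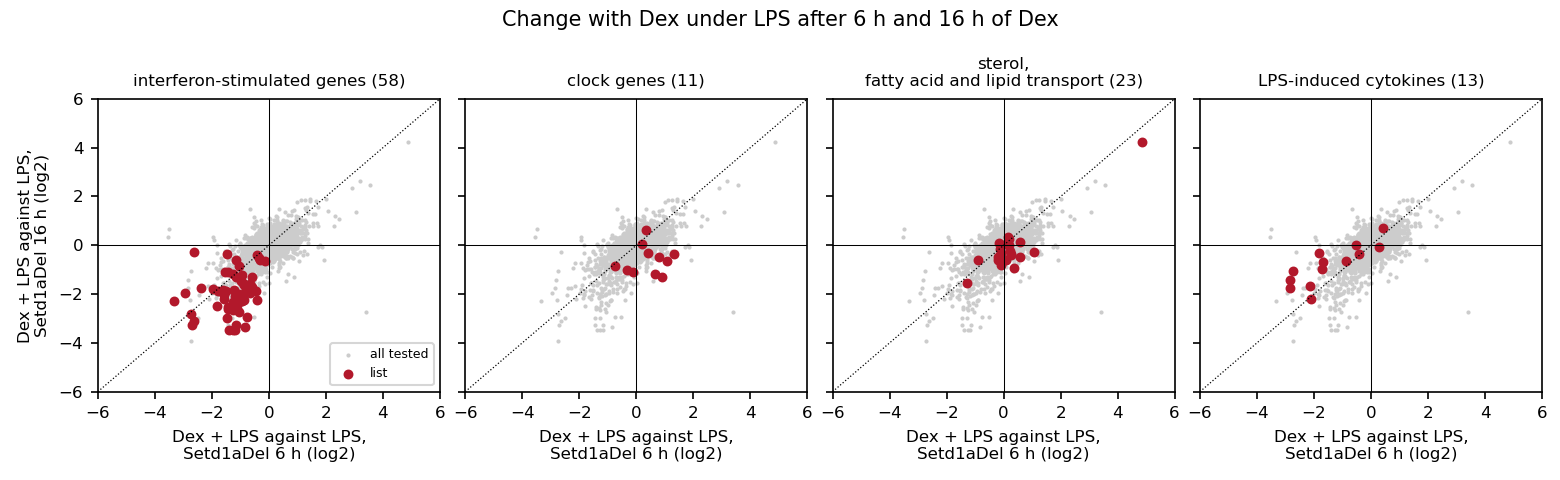
Log2 change with Dex under LPS in Setd1aDel cells after 6 h (horizontal axis) against 16 h of Dex (vertical axis), 1 point per gene, with list members in red, all tested genes in grey and equality dotted. Interferon-stimulated genes lay mostly below the dotted line (medians -1.17 at 6 h and -1.96 at 16 h), most clock genes lay right of 0 and below 0 on the vertical axis, and most cytokines lay above the line.

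The authors' deposited table of the same comparison gave 1311 genes higher and 1340 lower at an adjusted p under 0.05. Of these 2257 were called by both analyses and none in opposite directions. Across genes the changes in the authors' deposited table and those given here had a rank correlation of 0.995, as a description of 2 treatments of the same libraries.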

How the data were processed

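Polyadenylated RNA was sequenced with a stranded TruSeq kit, per the labels' protocols. Salmon 0.10.2, DESeq2, R 3.6.0 and the builds GRCm38.p6 and mm10 are named in the submitters' processing notes, with no version for DESeq2. The authors deposited TPM per gene and library, and a table of log2 fold changes with adjusted p-values for each comparison. TPM keep no depth, so no counting interval was made.

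Here log2(TPM + 1) was fitted with limma 3.58.1 (R 4.3.3, intensity trend on), with 1 mean per group, over the 24 libraries of the 6 h experiment, or over 42 libraries for 6 h minus 16 h. A gene had to reach 1 TPM in 3 or more libraries of the fit. Calls used a Benjamini-Hochberg adjusted p under 0.05 over all genes, and fold changes understate low genes. The fit was tested on simulated data, and no pair of libraries held identical values. Symbols came with the deposited values, and 10 missing ones were looked up in a list of gene names. Coordinates came from GENCODE vM21 (8967 of 8983 genes matched). Genes were named by rule: the 15 highest and 15 lowest called genes in Dex under LPS and the 8 highest and 8 lowest elsewhere (at least 5 TPM, no overlap of libraries), up to 6 called and 2 uncalled members of each list, and a set of LPS and hormone genes. Part of them are printed, and Csf1r, Cd68, Itgam, Adgre1 and a few list members stand outside the rule. Members and lists were chosen with earlier results of these data known. Other settings were a smaller pseudocount (0.1), all genes without the filter, rescaling by median ratios, the replicate number as a block, the compared groups alone and each library left out; the pair of a 0.1 pseudocount and the compared groups alone was added after the values were seen. P-values measure the spread between cultures of a group, pooled over all groups of both lines in the main fits. They do not measure a spread between lines or clones.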

Additional observations from a re-analysis of the deposited data

Results flagged for a closer look

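The following differences were called by a test of the difference itself, and no cause is given. The Dex change under LPS differed from the Dex change alone for 2704 genes in Setd1aDel cells. Genes named by the rule and printed above were Ifit3b (-3.33), Cytip (-2.83), Rsad2 (-2.81), Jarid2 (-2.77), Il1a (-2.75) and Lif (-2.75) below zero. Above zero they were Ung (1.75), Inka1 (1.69), Pik3cd (1.65) and Zfp385a (1.64), on the log2 scale. The rule also gave Pim2 (-3.56) and Ccl22 (-2.73) below zero. Above zero it also gave Lca5 (3.40), Arhgap39 (2.23), Map3k12 (2.05) and Lrrc8c (1.71). The genes printed in this section are a part of those the rule named. Ifit3b, Rsad2, Il1a and Lif were at or under 0.306 TPM in every Dex-alone and vehicle library, where a fall cannot be measured.

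The Dex change under LPS differed between Setd1aDel and wild-type cells for 475 genes. Lrmp (1.13), Dcstamp (1.09), Bcl7a (1.08), Nde1 (0.92) and Scd2 (0.80) were more positive in Setd1aDel cells, and Camkk2 (-2.92) and Mrfap1 (-1.75) more negative, the last pair with uneven libraries.

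The Dex change under LPS in Setd1aDel cells differed between the 6 h and 16 h experiments for 1720 genes. Dusp1 (2.52), Xaf1 (2.50), H2-T24 (2.41), Zbp1 (2.28), Ifi44 (2.19), Tef (2.18) and Oas3 (2.17) were more positive at 6 h. Ifit1bl1 (-2.36), Mmp9 (-2.14), Tgtp2 (-1.83), Lif (-1.69), Il1a (-1.41) and Ptpn5 (-1.37) were more negative at 6 h; the 16 h LPS libraries held at most 0.323 TPM of Ifit1bl1 and 0.00658 TPM of Tgtp2.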

How the results depend on the processing

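Counts of called genes stayed within 1.5 times the reported ones with a pseudocount of 0.1, without the filter and with the replicate block in every comparison, and with rescaling in all but LPS against vehicle. Fitted on the compared groups alone, 1288 genes were called higher with Dex under LPS, 159 were positive for Setd1aDel minus wild type and 468 negative for 6 h minus 16 h, fewer libraries estimating the spread. Rescaling gave 2967 genes higher with LPS. The combination added after the values were seen, a pseudocount of 0.1 with the compared groups alone, gave 154 positive for Setd1aDel minus wild type. With 1 library left out that comparison had 170 to 316 positive and 108 to 206 negative calls, and Dex under LPS had 1680 to 2003 higher and 824 to 968 lower. Of the gene results printed, 10 of 243 changed their call in at least 1 setting and no called one changed direction. Precision is limited by 3 libraries per group and by unknown depth.

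The groups share replicate numbers that the labels do not tie to a shared culture or day. Same-numbered libraries hardly deviated together (correlations of 0.016, 0.061 and -0.0037), and 2 of the 3 Dex with LPS libraries correlated best with their own number. With the replicate number as a block 1947 genes were higher and 952 lower with Dex under LPS.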
